A study of Mus musculus with 12 samples.

Results

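The interleukin-1 (IL-1) family is described here through 10 genes for its ligands, receptors and decoys, measured by bulk RNA sequencing of subcutaneous mouse tumours of pancreatic ductal adenocarcinoma. The genes were taken by symbol: Il1a, Il1b, Il1rn, Il1r1, Il1r2, Il1rap, Il18, Il18bp, Il33 and Il1rl1. All 10 were found among the 25619 genes shared by the 3 deposited tables, and all 10 passed the filter on low counts that left 19436 genes for testing. The tumours came from 4 groups of 3 samples. The combination group received an agonistic antibody to CD40 together with an antibody to IL-1R1, the CD40 agonist group the first of these alone, the anti-IL-1R1 group the second alone, and the last group was untreated. Antibodies were given into the peritoneum 2 times a week. No source used here gives the tumour cell line, the host strain, age or sex, the antibody clones and doses, an isotype control or the day of sampling, so the comparisons are with untreated tumours and not with a control antibody. Nothing in the labels says whether the 3 samples of a group came from separate animals, so p-values measure the spread between these samples.

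IL-1 alpha and IL-1 beta bind IL-1R1, which then recruits the accessory protein encoded by Il1rap and signals through MYD88 to NF-kB. The system carries its own brakes: the antagonist encoded by Il1rn occupies IL-1R1 without recruiting the accessory protein, and IL-1R2 binds ligand but lacks the signalling domain. IL-18 and IL-33 use receptors of the same family; IL-18 is neutralised by the soluble binding protein encoded by Il18bp, and IL-33 binds ST2, the product of Il1rl1, which also has a soluble decoy form. In pancreatic tumours IL-1 is best known for inflammatory signalling between macrophages, tumour cells and fibroblasts, and CD40 is a receptor on antigen-presenting cells through which an agonist activates them.

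Libraries held 27.8 to 53.3 M reads in genes. Values are in CPM, a gene's reads relative to the library's total, with totals scaled by the TMM method, and differences are log2 fold changes from edgeR's quasi-likelihood test over all 12 libraries, with a gene called when its p, adjusted over the 19436 genes by the Benjamini-Hochberg method, was under 0.05. The summed CPM of 7 skeletal muscle markers was 3499 in combination 1 and 1887 in CD40 agonist 2, against 1.43 to 42.9 in the other 10 libraries, so results are also given without those 2. Every library held the 7 ductal epithelial markers, whose summed CPM ran from 1882 to 2627 in the combination, 3057 to 4152 with CD40 agonist alone, 2966 to 3793 with anti-IL-1R1 and 2983 to 4156 in untreated tumours. In bulk tissue, fewer cells of a type and less RNA per cell cannot be told apart.

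The promoters of the 4 members with the largest differences between tumours with and without CD40 agonist, Il1a, Il18bp, Il1rl1 and Il1b, are shown so that their start regions can be compared. Each runs from 250 bases before to 50 bases after a RefSeq start site on GRCm38.p6, read on the gene's strand. Capitals mark matches to 2 of the motifs searched on both strands, the TATA box (TATAAA) and AP-1 (TGANTCA).
Il1a, chr2:129309923-129310222, minus strand: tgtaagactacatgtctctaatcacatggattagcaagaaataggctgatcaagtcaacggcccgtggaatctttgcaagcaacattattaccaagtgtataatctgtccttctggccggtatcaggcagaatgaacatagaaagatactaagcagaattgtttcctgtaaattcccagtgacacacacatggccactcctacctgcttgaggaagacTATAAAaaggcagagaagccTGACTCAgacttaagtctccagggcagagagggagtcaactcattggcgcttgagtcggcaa
Il1b, chr2:129371090-129371389, minus strand: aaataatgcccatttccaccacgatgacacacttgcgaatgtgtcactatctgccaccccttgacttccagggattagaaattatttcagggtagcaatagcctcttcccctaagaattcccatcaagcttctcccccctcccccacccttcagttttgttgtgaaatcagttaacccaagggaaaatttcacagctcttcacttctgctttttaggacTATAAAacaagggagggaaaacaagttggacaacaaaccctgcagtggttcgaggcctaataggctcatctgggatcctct
Il18bp, chr7:102018183-102018482, minus strand: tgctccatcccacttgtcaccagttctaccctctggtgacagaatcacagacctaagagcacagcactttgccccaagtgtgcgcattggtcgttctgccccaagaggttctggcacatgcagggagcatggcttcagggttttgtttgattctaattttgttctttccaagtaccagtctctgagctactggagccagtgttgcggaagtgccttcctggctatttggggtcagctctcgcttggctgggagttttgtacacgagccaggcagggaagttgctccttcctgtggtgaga
Il1rl1, upstream start, chr1:40429320-40429619, plus strand: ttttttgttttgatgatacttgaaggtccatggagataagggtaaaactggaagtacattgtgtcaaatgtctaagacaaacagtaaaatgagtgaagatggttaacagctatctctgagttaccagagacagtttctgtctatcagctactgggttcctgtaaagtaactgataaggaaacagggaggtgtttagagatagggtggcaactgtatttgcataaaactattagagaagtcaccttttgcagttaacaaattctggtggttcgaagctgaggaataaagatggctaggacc
Il1rl1, downstream start, chr1:40439379-40439678, plus strand: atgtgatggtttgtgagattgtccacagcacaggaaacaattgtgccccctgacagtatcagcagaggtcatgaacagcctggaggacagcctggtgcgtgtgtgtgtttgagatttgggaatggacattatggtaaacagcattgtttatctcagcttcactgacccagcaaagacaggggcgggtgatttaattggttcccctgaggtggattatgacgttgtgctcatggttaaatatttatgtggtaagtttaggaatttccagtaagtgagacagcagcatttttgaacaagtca

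Il1a and Il1b, neighbours on chromosome 2 whose deposited spans lie 54597 bases apart on the same strand, both had TATAAA close before the start, at 32 and 31 bases. A match to TATAAA anywhere in the window, on either strand, was found in 13.6% of the 32851 promoters searched. That share does not tell how often a match lies close before the start. Il1a also held TGACTCA 12 bases before its start, and TGANTCA matched in 7.81% of promoters. The window of Il18bp and both windows of Il1rl1 held no match to these motifs, to the interferon-gamma-activated site TTCNNNGAA (8.30% of promoters), to a paired interferon regulatory factor motif, GAAA followed after 2 bases by GAAA (3.44%), or to the NF-kB consensus (8.46%). Among the 15 windows of the 10 members, TATAAA matched in 6, from Il1a, Il1b, Il18, Il1rn and Il33. For Il33, 1 of these matches lay 29 bases before a start, much as in Il1a and Il1b. The other Il33 match lay 203 bases before a start. The matches of Il18 and Il1rn were on the opposite strand, 175 bases before and 14 bases after a start. TGANTCA matched in 2 windows, of Il1a and Il1rn. The NF-kB consensus matched in a window of Il1r1, TTCNNNGAA in one of Il1r2 and the paired GAAA motif in one of Il1rap. Such matches describe the letters of these windows and were not tied to binding.

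Levels of different genes were compared per kilobase of the deposited gene length. In untreated tumours the order ran from Il33, a nuclear cytokine released by damaged cells, at 17.4 ± 2.95 CPM per kilobase (SD, n = 3) and Il1rn at 17.2 ± 4.47, through Il1r1 at 10.6 ± 0.272 and Il1b at 6.47 ± 0.438, to Il1a at 0.437 ± 0.407. The ranges of Il33 and Il1rn overlapped, whereas Il1rn and Il1r1, Il1r1 and Il1b, and Il1b and the next gene Il18bp did not. Il18bp, Il18, Il1r2 and Il1rl1 formed a run of overlapping neighbours between 2.50 and 1.43 CPM per kilobase, and Il1rap stood at 0.901 ± 0.113. In anti-IL-1R1 tumours Il33 and Il1rn again led, at 14.4 ± 0.473 and 14.01 ± 0.822 CPM per kilobase, and Il1a was again last at 0.409 ± 0.151. The order in tumours given CD40 agonist was less distinct. In combination tumours every gene overlapped its neighbour in the order, Il18bp stood next after Il33 and Il1rn at 16.2 ± 6.19 CPM per kilobase and Il1a sixth at 7.04 ± 7.08. With CD40 agonist alone, Il33 led at 19.7 ± 2.61 and each gene again overlapped its neighbour.

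**Figure D1:**
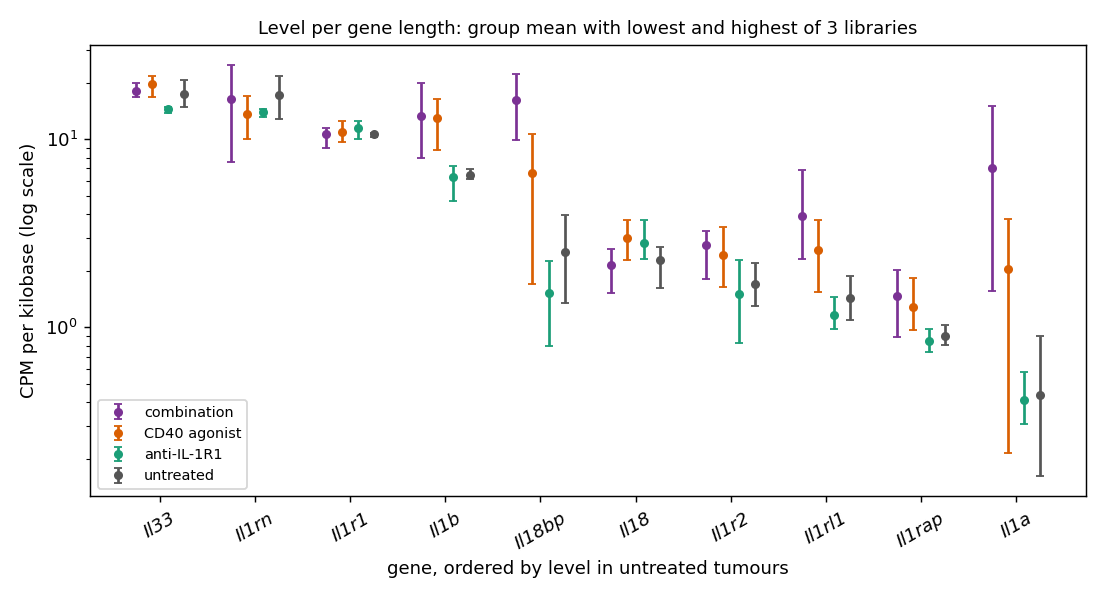
Mean CPM per kilobase of the 10 genes (log axis) in the 4 groups, with bars from the lowest to the highest of 3 libraries and genes ordered by their level in untreated tumours. Il33 and Il1rn lie at the top in each group, while Il18bp and Il1a lie far higher in combination tumours (16.2 and 7.04) than in untreated tumours (2.50 and 0.437).

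Pooled over the arms with and without anti-IL-1R1, the 6 tumours that received CD40 agonist carried on average more Il1b, Il18bp and Il1rl1 RNA than the 6 tumours that did not. Of the 10 members, 3 were called in this comparison of 6 against 6 libraries and all 3 rose; over all genes, 2.19% were called in either direction and 1.8% were called higher. The log2 fold change was positive for 7 members and negative for 3, with a median of 0.67, against -0.01 over all tested genes. DESeq2 called 4 members, the same 3 and Il1a, and 5.09% of genes; 7 members and 14.3% of genes had an unadjusted p under 0.05. The 3 calls depended on the set of libraries: with the replicate number as a block, without the 2 muscle-rich libraries, and without any single library other than combination 1, combination 2 or CD40 agonist 3, none of the 3 passed, and the number of members called ran from 0 to 4 over the 12 sets that leave out 1 library. The fold changes themselves moved little in those sets, from 0.84 to 1.17 for Il1b, 2.14 to 2.64 for Il18bp and 0.96 to 1.43 for Il1rl1. CD40 agonist alone against untreated tumours, described below, gave no edgeR call for any of these 3.

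**Figure D2:**
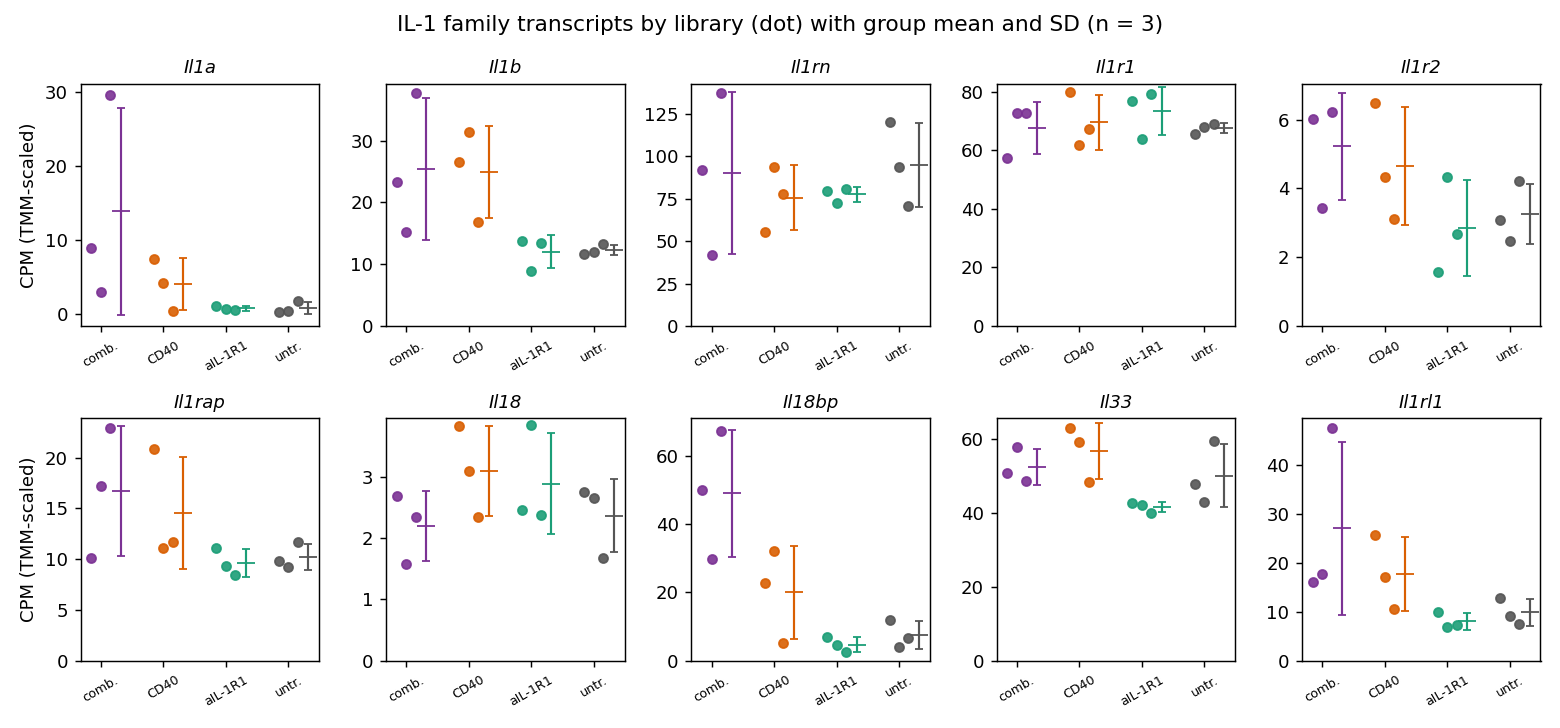
CPM of each member in every library, grouped as combination, CD40 agonist, anti-IL-1R1 and untreated, with the group mean and SD beside the 3 dots of each group. For Il1b all 6 libraries with CD40 agonist, at 15.1 to 37.8 CPM, lie above the 6 without it, at 8.95 to 13.7 CPM.

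Among the ligands, Il1b encodes the precursor of the cytokine IL-1 beta, and caspase-1 cleaves that precursor. The gene lies on mm39 chromosome 2 from 129206490 to 129213059, on the minus strand. Il1b measured 23.3, 15.1 and 37.8 CPM in combination tumours, 26.5, 31.4 and 16.8 CPM with CD40 agonist alone, 13.7, 8.95 and 13.5 CPM with anti-IL-1R1 alone and 11.7, 12.0 and 13.3 CPM in untreated tumours. All 6 libraries with CD40 agonist lay above all 6 without it, and no other member was so separated; 0.391% of genes were separated in that direction. The mean was 25.2 ± 8.63 CPM with CD40 agonist and 12.2 ± 1.79 CPM without (SD, n = 6 each), a log2 fold change of 1.04 ± 0.22 (SE, adjusted p = 0.0341). The adjusted p was 0.0784 with the replicate block, 0.0917 without the muscle-rich libraries and 0.0602 to 0.122 in the 9 single-library omissions that lost the call.

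Il1a encodes IL-1 alpha, which is active as its precursor and is released by damaged cells; the gene spans 129141530 to 129151892 on the same chromosome and strand. Il1a measured 8.95, 3.07 and 29.7 CPM in combination tumours, 7.45, 4.25 and 0.423 CPM with CD40 agonist alone, 1.15, 0.669 and 0.605 CPM with anti-IL-1R1 and 0.321, 0.480 and 1.79 CPM in untreated tumours. Combination 3 was far above the rest, and CD40 agonist 3, with 18 reads, lay among the tumours without the agonist, whose counts were 17 to 65 reads. The log2 fold change with against without CD40 agonist was 3.17 ± 0.77 (SE), the largest of the members, and it missed the threshold at an adjusted p of 0.0665. The adjusted p was 0.0112 without CD40 agonist 3 and 0.0398 without combination 2, while without combination 3 the log2 fold change was 2.56 (adjusted p = 0.114).

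Il18, the caspase-1-dependent inducer of interferon gamma, measured 1.57 to 3.83 CPM with CD40 agonist and 1.68 to 3.84 CPM without. The mean was 2.65 ± 0.766 CPM with CD40 agonist and 2.63 ± 0.704 CPM without (SD, n = 6 each), and the groups overlapped almost completely (adjusted p = 1.00, SE of the log2 fold change 0.26). Il33 measured 50.8, 57.8 and 48.5 CPM in the combination, 62.9, 59.3 and 48.4 CPM with CD40 agonist, 42.7, 42.1 and 40.05 CPM with anti-IL-1R1 and 48.0, 42.9 and 59.5 CPM in untreated tumours. Of the 6 tumours without CD40 agonist, untreated 3 alone reached into the range of those with it, yet the log2 fold change of 0.26 ± 0.11 (SE) did not pass (adjusted p = 0.322).

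Among the receptors, Il1r1, which encodes the receptor that the blocking antibody binds, stayed within a narrow range of 57.4 to 79.8 CPM over all 12 libraries. Its group means were 67.6 ± 8.89 CPM in the combination, 69.5 ± 9.28 with CD40 agonist, 73.4 ± 8.22 with anti-IL-1R1 and 67.6 ± 1.73 in untreated tumours (SD, n = 3 each). The log2 fold change with against without CD40 agonist was -0.04 ± 0.11 (SE, adjusted p = 0.934), and an RNA level gives no check of whether the receptor protein was blocked. Il1rap, the co-receptor shared by the IL-1 and IL-33 receptors, averaged 15.6 ± 5.46 CPM with CD40 agonist and 9.93 ± 1.24 CPM without (SD, n = 6 each). Of the 6 libraries with the agonist, 2 lay within the range of those without, and the log2 fold change of 0.65 ± 0.22 (SE) did not pass (adjusted p = 0.172).

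Il1rl1 encodes the IL-33 receptor ST2 and lies on chromosome 1 from 40468730 to 40504575, on the plus strand. Il1rl1 measured 16.0, 17.7 and 47.5 CPM in combination tumours, 25.7, 17.03 and 10.6 CPM with CD40 agonist alone, 9.98, 6.80 and 7.29 CPM with anti-IL-1R1 and 12.9, 9.21 and 7.56 CPM in untreated tumours. CD40 agonist 3 lay below untreated 1, and the other 5 libraries with the agonist lay above all 6 without it. The log2 fold change was 1.30 ± 0.30 (SE, adjusted p = 0.0436), and 0.96 with an adjusted p of 0.0654 without combination 3, the highest library. The adjusted p was 0.0905 with the replicate block, 0.0644 without the muscle-rich libraries, 0.0511 with no filter on low counts and up to 0.144 in the other omissions that lost the call. Counts per gene do not separate the membrane and soluble forms of ST2.

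Il1rl1 lies in a run of 6 coding receptor genes of the family on chromosome 1, all on the plus strand over 478 kilobases, in the order Il1r2, Il1r1, Il1rl2, Il1rl1, Il18r1 and Il18rap (mm39). Along this run the log2 fold changes with against without CD40 agonist were 0.69, -0.04, 0.58, 1.30, -0.05 and 0.62, so the called gene stood between genes that were not called. Il18r1, a subunit of the IL-18 receptor that starts 136 bases after the end of Il1rl1, averaged 24.5 ± 5.29 CPM with CD40 agonist and 25.3 ± 2.03 CPM without (SD, n = 6 each, adjusted p = 0.928). Il18rap, the other IL-18 receptor subunit, averaged 42.3 ± 13.9 CPM with CD40 agonist and 27.1 ± 3.53 CPM without (SD, n = 6 each, adjusted p = 0.0793).

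Among the antagonists and decoys, Il1rn encodes the IL-1 receptor antagonist. It measured 91.8, 41.9 and 137 CPM in combination tumours, 55.6, 93.8 and 77.5 CPM with CD40 agonist alone, 79.7, 72.3 and 80.7 CPM with anti-IL-1R1 and 120, 93.8 and 70.9 CPM in untreated tumours. The combination tumours held both the lowest and the highest of the 12 values. The log2 fold change with against without CD40 agonist was -0.05 ± 0.24 (SE, adjusted p = 0.961). Il1r2, the decoy receptor, averaged 4.94 ± 1.495 CPM with CD40 agonist and 3.06 ± 1.06 CPM without (SD, n = 6 each), and its log2 fold change of 0.69 ± 0.30 (SE) did not pass (adjusted p = 0.312).

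Il18bp encodes the IL-18 binding protein, is known to be induced by interferon gamma and lies on chromosome 7 from 101664092 to 101667897, on the minus strand. Il18bp measured 49.9, 29.9 and 67.3 CPM in combination tumours, 22.8, 32.1 and 5.12 CPM with CD40 agonist alone, 6.82, 4.61 and 2.42 CPM with anti-IL-1R1 and 12.0, 4.07 and 6.65 CPM in untreated tumours. CD40 agonist 3 lay among the libraries without the agonist, and the other 5 libraries with it lay above all 6 without. The log2 fold change was 2.40 ± 0.47 (SE, adjusted p = 0.0341). The adjusted p was 0.0735 with the replicate block, 0.0828 without the muscle-rich libraries, 0.0571 with no filter on low counts and 0.0725 to 0.123 in the 9 single-library omissions that lost the call.

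**Figure D3:**
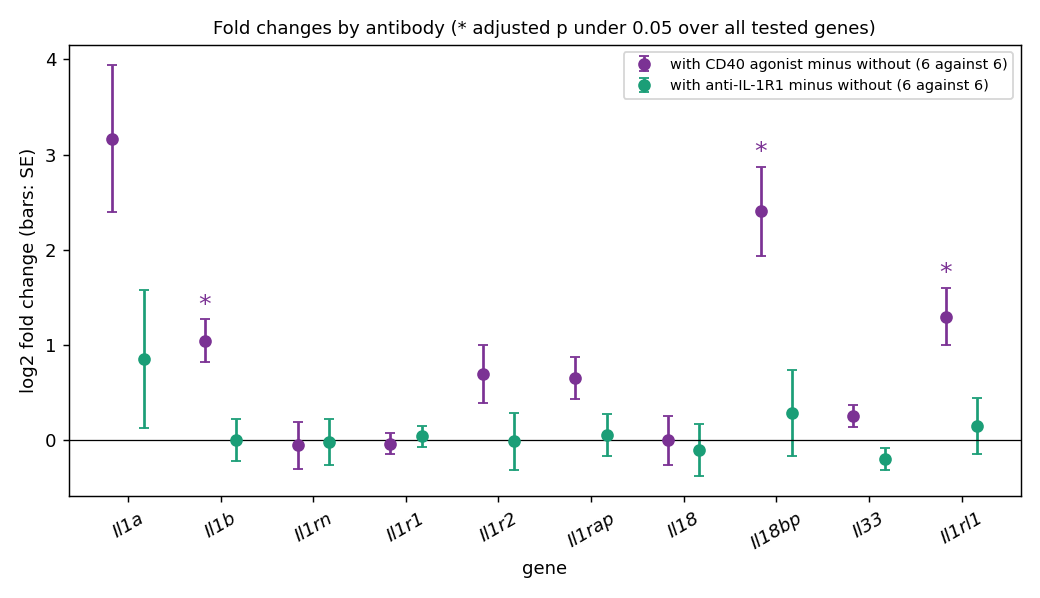
Log2 fold change with its SE for each member, for the 6 libraries with CD40 agonist against the 6 without and for the 6 with anti-IL-1R1 against the 6 without; a star marks an adjusted p under 0.05. Il1b, Il18bp and Il1rl1 carry a star for CD40 agonist (1.04, 2.40 and 1.30), and no gene does for anti-IL-1R1.

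Pairwise comparisons share libraries with one another and with the comparison above, so their values are given side by side and not as separate support. In the combination against anti-IL-1R1 alone, 1 of 10 members was called, Il18bp, which rose, where 2.44% of all genes were called and 1.89% were called higher. DESeq2 called 4 members, Il1a, Il1b, Il18bp and Il1rl1, and 5.97% of genes; 5 members and 14.6% of genes had an unadjusted p under 0.05. Il18bp averaged 49.0 ± 18.7 CPM in combination tumours and 4.62 ± 2.20 CPM with anti-IL-1R1 alone (SD, n = 3 each), a log2 fold change of 3.41 ± 0.69 (SE, adjusted p = 0.0364). That call remained without CD40 agonist 2, CD40 agonist 3 or combination 2 and was lost without each of the other 9 libraries (adjusted p 0.0515 to 0.161), with the replicate block (0.0684) and with no filter (0.0614). The 3 combination libraries lay above the 3 anti-IL-1R1 libraries in 5 members, Il1a, Il1b, Il18bp, Il33 and Il1rl1, as in 8.8% of genes. Of these, Il1rl1 had a log2 fold change of 1.75 (adjusted p = 0.0507), Il1a of 4.10 (0.0978), Il1b of 1.08 (0.0988) and Il33 of 0.33 (0.367).

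In the combination against untreated tumours, edgeR called 0 of 10 members and 0.0617% of genes, with 5 members and 15.5% of genes at an unadjusted p under 0.05. DESeq2 called 4, Il1a, Il1b, Il18bp and Il1rl1, and 4.93% of genes. In those 4 members the 3 combination libraries lay above the 3 untreated ones, as in 10.7% of genes. The log2 fold changes were 4.02 for Il1a (adjusted p = 0.135), 2.69 for Il18bp (0.105), 1.45 for Il1rl1 (0.132) and 1.04 for Il1b (0.139).

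In CD40 agonist alone against untreated tumours, edgeR called 0.0% of genes and 0 members, with 1 member and 2.41% of genes at an unadjusted p under 0.05, and DESeq2 called 0 members and 0.0236% of genes. That member was Il1b, whose 3 CD40 agonist libraries lay above the 3 untreated libraries, as in 5.15% of genes, with a log2 fold change of 1.01 ± 0.32 (SE, unadjusted p = 0.00649, adjusted p = 1.00). The authors' deposited table gave Il1b a log2 fold change of 1.01 and an adjusted p of 0.0316, and Il1b was the only member past 0.05 in that table, where 0.0551% of genes passed. Log2 fold changes of other members included 2.24 for Il1a, 1.40 for Il18bp and 0.85 for Il1rl1, all with an adjusted p of 1.00.

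Adding anti-IL-1R1 to CD40 agonist gave no call among the members. In the combination against CD40 agonist alone, edgeR called 0 of 10 members, along with 0.00515% of genes, and 0 members against 6.64% of genes had an unadjusted p under 0.05. DESeq2 called 0 members and 0.492% of genes. No member was free of overlap, where 3.56% of genes lay apart and higher and 5.02% apart and lower. The largest log2 fold changes were 1.78 ± 1.02 for Il1a and 1.29 ± 0.64 for Il18bp (SE, adjusted p = 0.809 and 0.780), with Il1b at 0.03 ± 0.31. The authors' deposited table gave Il18bp a log2 fold change of 1.30 with an adjusted p of 0.670, and no member passed there, where 0.0789% of genes did.

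Anti-IL-1R1 alone against untreated tumours likewise gave 0 members and 0.0% of genes called by edgeR and 0 members and 0.0% of genes by DESeq2, with 0 members and 1.56% of genes at an unadjusted p under 0.05. No member and 0.079% of genes passed in the authors' deposited table. In all, 8 members had a negative log2 fold change, with a median of -0.14 over the 10 members and -0.0011 over all genes. Il33 was the 1 member whose 3 anti-IL-1R1 libraries, at 40.05 to 42.7 CPM, lay below the 3 untreated libraries, at 42.9 to 59.5 CPM, as in 4.99% of genes, and its log2 fold change of -0.27 ± 0.16 (SE) did not pass (adjusted p = 1.00). Il18bp had a log2 fold change of -0.72 ± 0.64 and Il1r1 of 0.12 ± 0.15 (SE). With the replicate number as a block in a fit of these 2 groups alone, 27 genes were called and 0 members. Over all 6 libraries with anti-IL-1R1 against all 6 without, 0 members and 0.0% of genes were called by edgeR and 0 members and 0.102% of genes by DESeq2. No member and 4.58% of genes had an unadjusted p under 0.05, and Il1a had the largest log2 fold change, 0.85 ± 0.73 (SE).

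Whether the effect of anti-IL-1R1 differed with and without CD40 agonist was tested by the interaction. EdgeR called 0 members and 0.0% of genes, 1 member and 4.37% of genes had an unadjusted p under 0.05, and DESeq2 called 0 members and 0.0952% of genes. That member was Il18bp, with an interaction of 2.01 ± 0.90 on the log2 scale (SE, unadjusted p = 0.0493, adjusted p = 1.00).

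Ratios of antagonist to ligand were computed per kilobase in each library and described without a test. Il1rn stood at 1.36, 0.952 and 1.25 times Il1b in combination tumours and 0.723, 1.03 and 1.59 times with CD40 agonist, against 2.00, 2.79 and 2.07 times with anti-IL-1R1 and 3.54, 2.69 and 1.84 times in untreated tumours. The 6 ratios with CD40 agonist all lay below the 6 without. Il1b by itself was separated between these libraries, whereas Il1rn overlapped, at 41.9 to 137 CPM with CD40 agonist and 70.9 to 120 CPM without. The ratio of Il18bp to Il18 was 6.34, 6.47 and 9.75 in combination tumours, above all other libraries, which had 2.03, 3.53 and 0.743 with CD40 agonist, 0.946, 0.409 and 0.347 with anti-IL-1R1 and 1.48, 0.522 and 1.35 in untreated tumours. Il1r2 stayed below its signalling counterpart Il1r1 in every library, with a mean ratio of 0.264 in the combination, 0.220 with CD40 agonist, 0.136 with anti-IL-1R1 and 0.161 in untreated tumours, and the groups overlapped. The ratio of Il1rn to Il1a was 1.65 to 4.87 in combination tumours, 2.66 to 65.3 with CD40 agonist, 24.7 to 47.5 with anti-IL-1R1 and 14.1 to 134 in untreated tumours. These are ratios of RNA and not of protein.

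**Figure D4:**
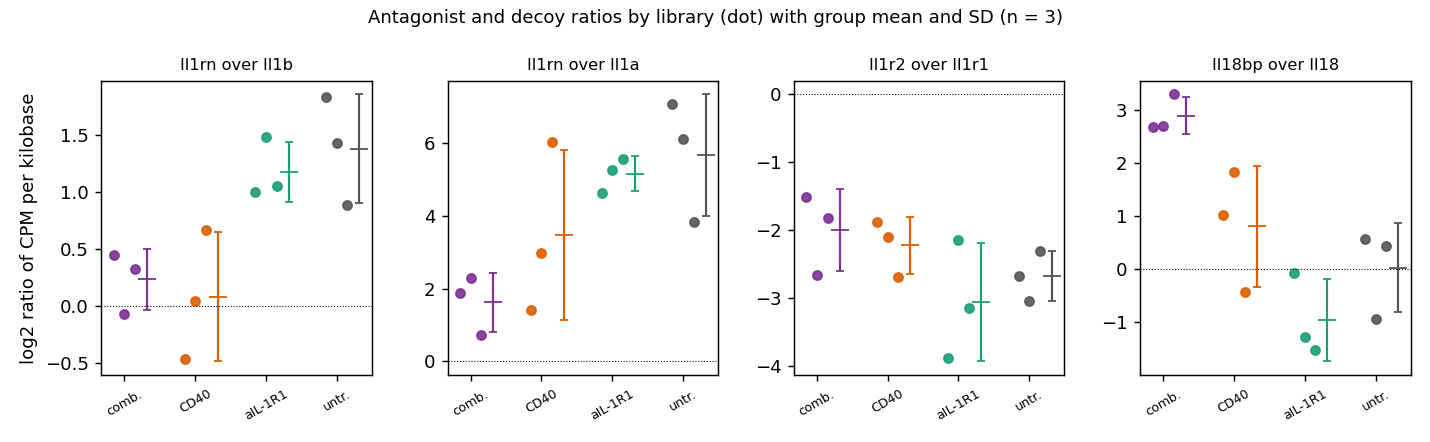
Log2 ratio of CPM per kilobase in every library for antagonist or decoy over ligand or receptor, with the group mean and SD. Il1rn over Il1b is lower in the 6 libraries with CD40 agonist (0.723 to 1.59 before taking logs) than in the 6 without (1.84 to 3.54), and Il18bp over Il18 is highest in the 3 combination libraries (6.34 to 9.75). Il1b by itself is separated with against without CD40 agonist, and Il1rn is not.

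Genes that process, transmit or answer IL-1 family signals were followed in 6 lists. Of 11 tested genes for maturation and release, edgeR called 3 with against without CD40 agonist, all higher, DESeq2 called 6, and 7 had an unadjusted p under 0.05. Over all genes these shares were 2.19%, 5.09% and 14.3%. All 11 log2 fold changes were positive, with a median of 0.85, where 48.6% of all genes were positive. Pycard, the inflammasome adaptor, averaged 10.7 ± 4.54 CPM with CD40 agonist and 2.71 ± 0.875 CPM without (SD, n = 6 each), a log2 fold change of 1.92 (adjusted p = 0.0142). Casp1, the protease that cleaves pro-IL-1 beta and pro-IL-18, rose by 1.30 on the log2 scale (adjusted p = 0.0496) and Casp4, the noncanonical inflammasome caspase, by 1.27 (adjusted p = 0.0471). Gsdmd, the pore-forming protein, and Nlrp3, an inflammasome sensor, had log2 fold changes of 0.59 and 1.32 that did not pass (adjusted p = 0.0657 for both).

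The same shares over all genes, 2.19% called by edgeR, 5.09% by DESeq2 and 14.3% by unadjusted p, stand beside the counts of the next lists. Of the 20 signalling genes, edgeR called 2, which both rose, DESeq2 called 2 and 5 had an unadjusted p under 0.05, with a median log2 fold change over the list of 0.08. They were Tnfaip3, with a log2 fold change of 1.10 (adjusted p = 0.0272), and Nfkbia, with one of 0.93 (adjusted p = 0.0307), inhibitors of NF-kB signalling that NF-kB itself induces. The adaptor Myd88 had a log2 fold change of 0.46 (adjusted p = 0.122). Of 14 transcripts known to be induced by IL-1, edgeR called 2, both higher, DESeq2 called 8, and 12 had an unadjusted p under 0.05. All 14 log2 fold changes were positive with a median of 1.81. In the combination against CD40 agonist alone, 10 of the 14 were positive and 4 negative, with a median of 0.53. In anti-IL-1R1 alone against untreated tumours, 4 were positive and 10 negative, with a median of -0.60. Over all genes, 50.3% and 49.9% were positive in these 2 comparisons. Whether IL-1 itself raised these transcripts was not tested. Ptgs2, the inducible cyclooxygenase, averaged 64.9 ± 47.8 CPM with CD40 agonist and 22.1 ± 5.56 CPM without (SD, n = 6 each), a log2 fold change of 1.53 (adjusted p = 0.0416). Saa3, an acute-phase protein, had a log2 fold change of 4.08 (adjusted p = 0.0391), and CD40 agonist 3, at 3.55 CPM, lay among the libraries without the agonist.

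Of 4 tested transcripts of cells that answer IL-18 and IL-33, Ifng alone was called by edgeR, with a log2 fold change of 3.62 (adjusted p = 0.0341), DESeq2 called 1 and 2 had an unadjusted p under 0.05. Over the list 3 log2 fold changes were positive and 1 negative, with a median of 0.39, where 48.6% of all genes were positive. Areg averaged 14.7 ± 7.01 CPM with CD40 agonist and 15.9 ± 2.15 CPM without (SD, n = 6 each). For Tnfrsf9 the means were 34.6 ± 8.61 and 32.5 ± 7.58 CPM, and for Gata3 5.26 ± 2.48 and 3.26 ± 0.960 CPM. Ifng measured 4.88, 4.24 and 20.8 CPM in combination tumours, 1.90, 2.27 and 0.282 CPM with CD40 agonist, 0.314, 0 and 0.0233 CPM with anti-IL-1R1 and 0.943, 0.819 and 0.687 CPM in untreated tumours. Of 5 tested receptors of the family outside the 10 members, 0 were called by edgeR and 1 by DESeq2, with 2 at an unadjusted p under 0.05. For both lists the shares over all genes were again 2.19%, 5.09% and 14.3%. Of the 5 other ligands and antagonists, Il36g was the 1 listed in the tables, and it reached at most 0.409 CPM. In anti-IL-1R1 against untreated tumours, 0 of the 55 tested genes of the 6 lists were called by edgeR and 0 by DESeq2, with 1 at an unadjusted p under 0.05. Over all genes these shares were 0.0%, 0.0% and 1.56%. Of the 8 list genes called with against without CD40 agonist, Pycard passed in 9 of the 12 fits that leave out 1 library and without the muscle-rich libraries (adjusted p = 0.0340), and it failed without anti-IL-1R1 1, untreated 1 or untreated 2. The other 7 failed without the muscle-rich libraries and without any single library other than CD40 agonist 3 or one of the combination libraries, and none of the 8 passed with the replicate block (adjusted p 0.0716 to 0.122).

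Markers of other cell types were set beside the members. With against without CD40 agonist, 2.19% of all genes were called by edgeR and 5.09% by DESeq2, and 14.3% had an unadjusted p under 0.05. The summed CPM of 7 macrophage and monocyte markers was 1303 to 2256 in combination tumours and 730 to 2089 with CD40 agonist, against 561 to 750 with anti-IL-1R1 and 676 to 857 in untreated tumours. Itgam was the 1 of these 7 called by edgeR with against without CD40 agonist, with a log2 fold change of 1.30 (adjusted p = 0.0272), while DESeq2 called 4 and 5 had an unadjusted p under 0.05. Adgre1 and Mrc1 had log2 fold changes of -0.12 and 0.02. For 7 neutrophil markers the sum was 7.81 to 19.9 CPM in the combination and 5.10 to 23.3 with CD40 agonist, against 5.44 to 5.73 with anti-IL-1R1 and 4.32 to 7.92 in untreated tumours, with S100a9 called by edgeR among 6 tested, 2 called by DESeq2, 2 at an unadjusted p under 0.05, Ly6g at a log2 fold change of -0.03 and Retnlg at 0 in every untreated library. For 6 T cell markers the sum was 12.7 to 56.1 CPM in the combination and 4.96 to 22.7 with CD40 agonist, against 3.28 to 8.68 with anti-IL-1R1 and 9.63 to 20.6 in untreated tumours, with 0 called by edgeR, 0 by DESeq2 and 3 at an unadjusted p under 0.05. All 6 T cell log2 fold changes were positive, with a median of 1.30, where 48.6% of all genes were positive. CD40 agonist 3 was the lowest of the 6 agonist-treated libraries for all 3 sums, and it was the lowest of its own group in 7 of the 10 members. Combination 3 was the highest of all 12 libraries in 6 members, Il1a, Il1b, Il1rn, Il1rap, Il18bp and Il1rl1. The matching shares over all genes were not computed, so these 2 counts do not set the members apart from other genes. In combination 3 the gene Rn18s-rs5 held 0.508% of reads, against 1.38 to 4.10% in the other libraries. Its 10 most abundant genes held 5.35% of reads, the lowest share of the 12 libraries. Of 7 ductal epithelial markers all 7 log2 fold changes were negative, and Epcam was called lower, at 1.73 ± 2.04 CPM with CD40 agonist and 9.15 ± 5.65 CPM without (SD, n = 6 each), a log2 fold change of -4.05 (adjusted p = 0.0179); DESeq2 called 3 and 4 had an unadjusted p under 0.05. Of 6 fibroblast markers, 2 had positive and 4 negative log2 fold changes, and Pdgfra was called higher, with a log2 fold change of 0.64 (adjusted p = 0.0281); DESeq2 called 2 and 3 had an unadjusted p under 0.05. The part of these cell types in the members' differences was not tested.

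**Figure D5:**
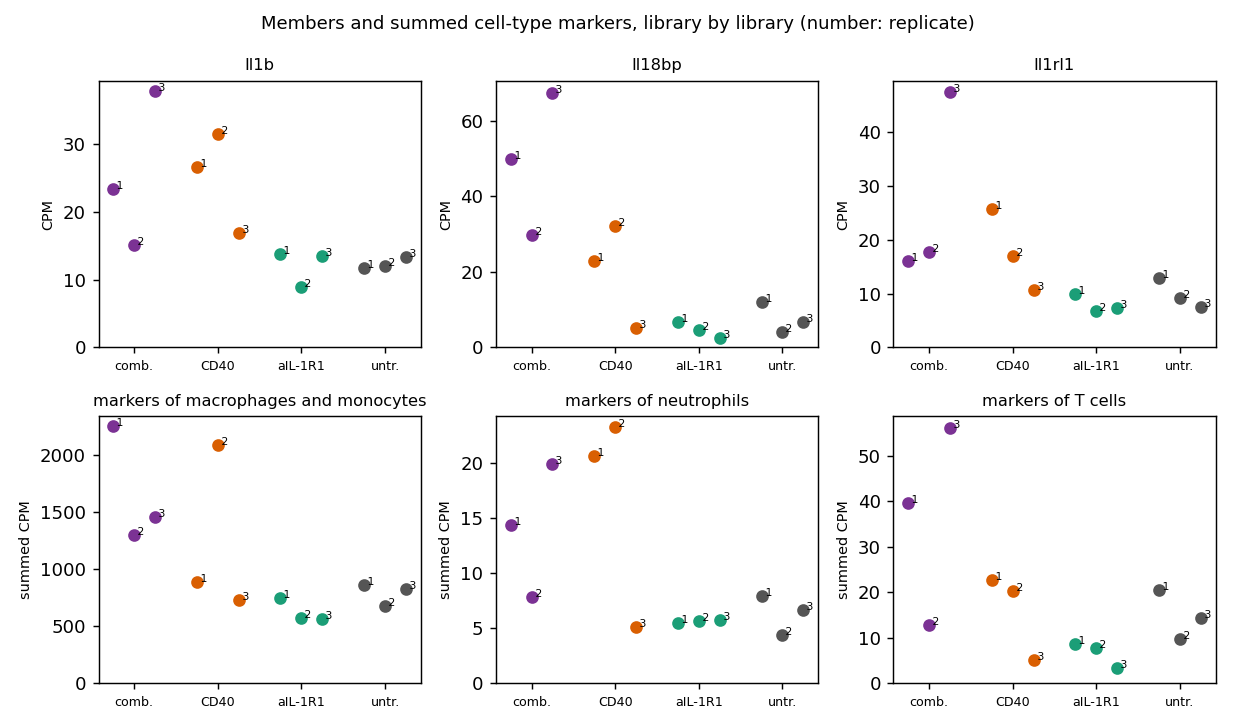
CPM of Il1b, Il18bp and Il1rl1 (top) and summed CPM of macrophage and monocyte, neutrophil and T cell markers (bottom) in each library, with replicate numbers beside the dots. CD40 agonist 3 lies at or near the level of tumours without the agonist for Il18bp (5.12 CPM), for Il1rl1 (10.6 CPM) and for the 3 marker sums, while for Il1b (16.8 CPM) it stays above them.

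Mast cells and regulatory T cells can carry ST2. The summed CPM of 6 mast cell markers was 16.9 to 35.3 with CD40 agonist and 19.9 to 37.7 without, with 0 called by edgeR, 0 by DESeq2 and 0 at an unadjusted p under 0.05. Over all genes these shares were 2.19%, 5.09% and 14.3%. For 4 regulatory T cell markers the sum was 16.7 to 37.1 CPM with CD40 agonist and 15.9 to 18.6 CPM without, of which Ikzf2 made up 14.6 ± 2.59 CPM with CD40 agonist and 14.2 ± 1.77 CPM without (SD, n = 6 each). Il2ra was the 1 called by edgeR and by DESeq2, with a log2 fold change of 2.30 (adjusted p = 0.0379), while the lineage factor Foxp3 had one of -0.15 (adjusted p = 0.967). Ctla4 had a log2 fold change of 1.05 that did not pass (adjusted p = 0.243), and 2 of the 4 had an unadjusted p under 0.05. The part of either in the difference of Il1rl1 was not tested. Of the 5 markers named as called, Epcam and Itgam passed without the muscle-rich libraries (adjusted p = 0.0362 and 0.0487), while Pdgfra, S100a9 and Il2ra did not (0.0562, 0.0774 and 0.0736), and none of the 5 passed with the replicate block. Epcam passed in 9 of the 12 fits that leave out 1 library and failed without anti-IL-1R1 1, CD40 agonist 1 or untreated 2. Itgam, S100a9 and Il2ra failed without any single library other than CD40 agonist 3 or one of the combination libraries, and Pdgfra without any other than those or CD40 agonist 2.

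Genes with the most similar pattern over the 12 libraries were named by the smallest root mean square difference between standardised log2 profiles, among 12897 genes. For Il18bp these were Ido2, Tap2 and Gbp5, at 0.122, 0.149 and 0.155. For Il1rl1 they were Ripk2, Il2ra and Itgam, at 0.244, 0.337 and 0.356. For Il1a they were Il13ra1, Htr1b and Znrf1, at 0.216, 0.238 and 0.249, and for Il1b Wdr62, Tnfaip3 and Hmox1, at 0.342, 0.358 and 0.403. Il1rap was nearest to Fxyd5, at 0.301. The other 5 members had no gene closer than 0.419, the distance of Il1r2 to Trim5. These distances describe 12 libraries that share treatments and carry no p.

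A few members share their place in the genome with other genes, and no source used here says whether counting used strand. The noncoding Gm14023 shares 8217 bases of its span with Il1a on the other strand and had 0 to 36 reads per library, against 17 to 1388 for Il1a. The antisense transcript Il1bos overlaps Il1b by 1243 bases and had 0 to 22 reads per library, against 254 to 1767 for Il1b. Numa1 overlaps Il18bp by 80 bases on the other strand and had 3436 to 8981 reads, against 104 to 3148 for Il18bp. Il18 shares part of its span with Bco2 and Tex12, which had at most 36 and 5 reads. Gm37347 shares 3071 bases with Il1r2 on the same strand and had 0 to 14 reads, against 60 to 314 for Il1r2, and Gm20319 overlaps Il1rap on the other strand with at most 4 reads.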

How the data were processed

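Per the labels, total RNA was extracted from 12 tumour samples in 4 groups of 3. Per the submitters' processing notes, mm39 and DESeq2 were used; no source used here gives the aligner, counting tool, annotation release or strand setting. The authors deposited 3 pairwise tables with raw counts per gene and library, their own log2 fold changes, a p-value and an adjusted p per gene, and gene lengths. The 42 columns of other values were not used. Tables were joined on the 25619 genes listed in all 3, with 0 mismatches of counts, and each table lists genes with at least 2 reads over its 6 libraries.

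The test was that of edgeR 4.0.16 under R 4.3.3 (robust quasi-likelihood fit, TMM factors, filterByExpr, all 12 libraries, 8 contrasts), with Benjamini-Hochberg adjustment over 19436 genes at 0.05. The biological coefficient of variation was 0.446 with 8 residual degrees of freedom. The edgeR step was tested on simulated counts whose dispersion was set below the 0.199 of these data. That test therefore does not show how many true differences would be found here. DESeq2 1.42.0, RLE factors, no filter, a replicate block, and fits without single libraries were alternatives. The 10 genes, the gene lists and the tests were chosen with earlier results of these data known. Named genes beside the members are the 3 nearest by pattern (mean of at least 1 CPM, pseudocount 0.5) and, per list, those called and those of lowest p.

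Same-numbered libraries deviated together, with every correlation above 0.1, only for anti-IL-1R1 and untreated (0.230, 0.193 and 0.220), a pairing taken from the data and not from the labels. Promoter sequences come from RefSeq, and all 10 members had an entry. No 2 libraries were copies (lowest median chi-square per gene 5.19).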

Additional observations from a re-analysis of the deposited data

Results flagged for a closer look

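Single libraries stood far from the others in 4 of the 40 sets of 6 libraries examined, each set holding 1 member over the libraries with or without 1 of the antibodies. Chance alone would flag about 5% of sets of like and separate libraries. Each set here mixes groups that differ in the other antibody, and the sets share libraries. The 4 therefore cannot be weighed against that share. Il1a at 29.7 CPM in combination 3 stood apart from the other libraries with CD40 agonist and from the other libraries with anti-IL-1R1. Il1rl1 at 47.5 CPM in combination 3 stood apart among the libraries with anti-IL-1R1. Il1rap at 20.9 CPM in CD40 agonist 1 stood apart among the libraries without anti-IL-1R1.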

How the results depend on the processing

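Levels of the 10 members moved by less than 1 SD under each other scaling tried. Of the fold changes with against without CD40 agonist, those of Il1b, Il18bp, Il1rl1, Il1a, Il1rap, Il1r2 and Il33 stayed positive in every setting, while values near 0 changed sign: Il1r1 was 0.043 without CD40 agonist 2 and combination 1, and Il18 was 0.0011 with DESeq2 and 0.0092 with the replicate block. Leaving out 1 library at a time gave -0.27 to 0.11 for Il1rn, -0.10 to 0.013 for Il1r1 and -0.12 to 0.11 for Il18.

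Counts of calls were less stable, and the cause was not tested. With the replicate block, 0 members and 0 genes were called with against without CD40 agonist, in the combination against anti-IL-1R1 and, for genes, in the combination against untreated and against CD40 agonist alone. Over all pairs of groups, 6 of 18 same-numbered pairs of libraries had a correlation above 0.1, and 5 of 18 correlated best with their own number. Both counts include the pairs of anti-IL-1R1 and untreated, the only groups with every correlation above 0.1. The replicate block in a fit of anti-IL-1R1 and untreated alone, chosen after seeing the data, called 27 genes and 0 members. DESeq2 called 1095 genes with against without CD40 agonist, 1283 in the combination against anti-IL-1R1, 1035 in the combination against untreated, 101 against CD40 agonist alone, 6 in CD40 agonist against untreated, 22 with against without anti-IL-1R1 and 20 for the interaction. Of these genes 4 were members with against without CD40 agonist, 4 in the combination against untreated and 4 in the combination against anti-IL-1R1. With no filter, 1 member and 319 genes were called with against without CD40 agonist, 0 members and 365 genes in the combination against anti-IL-1R1, and 0 members and 72 genes against untreated. Without CD40 agonist 2 and combination 1, calls were 100 genes and 0 members with against without CD40 agonist, 2 members and 556 genes in the combination against anti-IL-1R1, and 153 genes against untreated and 0 against CD40 agonist alone. With only the 2 groups compared in the fit, 154 genes and 1 member were called in the combination against untreated, 2 members and 353 genes against anti-IL-1R1 and 0 genes against CD40 agonist alone.

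Leaving out 1 library at a time gave 0 to 4 members and 0 to 765 genes with against without CD40 agonist, 0 to 3 members and 0 to 660 genes in the combination against anti-IL-1R1, 0 to 1 member and 0 to 550 genes against untreated, 0 to 5 genes against CD40 agonist alone, and 0 to 8 genes in CD40 agonist against untreated. With 3 libraries a group, Il18 and Il1r2 (59 to 314 reads a library) and Il1a (17 reads at lowest) carry the least depth.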
